A study of Caenorhabditis elegans with 2 samples.

Results

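Transfer RNA (tRNA) genes were examined for RNA polymerase II in whole larvae of the nematode Caenorhabditis elegans. All 612 nuclear genes of biotype tRNA were taken from the Ensembl annotation of the WBcel235 assembly, which holds 46890 nuclear genes in all. A window ran from 500 bp before to 500 bp after each gene. The 197 genes with a protein-coding, snRNA or snoRNA 5′ end within 1000 bp are called near, and the other 415 far. The distances just inside and just outside this limit were 984 and 1004 bp, and the median distance was 478 bp for near and 2608 bp for far genes. Membership and the split rest on annotated positions.

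The samples form 1 group, with 2 biological replicates of wild-type N2 worms at the L2 larval stage, with the sexes pooled and no treatment or mutation. Chromatin immunoprecipitation and sequencing (ChIP-seq) was done on whole animals with an antibody labelled ama-1, so every value averages over all tissues. The deposited peak lists were the material here: 1 list per replicate and 1 pooled list of 30000 peaks each, and an optimal list of 1861 peaks. The optimal list was exactly the 1861 pooled peaks of highest signal. Read depth is unknown from these lists, and the intervals given below cover counting error over genes only. No condition could be compared, so the shares of tRNA windows were set beside those of 93535 tiles that cut the nuclear genome into stretches of 1072 bp, the median window length.

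The antibody target AMA-1 carries the catalytic centre of RNA polymerase II, the enzyme of messenger RNAs and of many small nuclear RNAs. tRNA genes are transcribed by a different enzyme, RNA polymerase III. Its promoter lies inside the gene: the factor TFIIIC binds the internal elements box A and box B, TFIIIB then assembles just upstream of the gene, and transcription ends in a run of T residues past the gene. In human cells RNA polymerase II has been mapped beside many active tRNA genes.

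Sequences are shown for genes on which the results below turn, read from the RefSeq sequence of WBcel235, 5′ to 3′ on the strand of the tRNA gene. The first set gives whole genes followed by the 20 bases past their end, with box B (GGTTCGA), box A (TGGCNNAGT) and the run of T residues in capitals where a search found them. K11H12.t1 (chrIV:658181-658266, plus strand) is the selenocysteine tRNA gene, C18A11.t2 (chrX:8036685-8036757, minus strand) the far gene with the highest signal, and C04A11.t1 (chrX:13665555-13665673, plus strand) a leucine tRNA gene with both boxes. F46G11.t2 (chrX:5801211-5801282, minus strand), F46G11.t1 (chrX:5801472-5801543, plus strand) and ZK970.t1 (chrII:10302399-10302470, plus strand) are proline tRNA genes with the same gene body and different bases after it.
K11H12.t1: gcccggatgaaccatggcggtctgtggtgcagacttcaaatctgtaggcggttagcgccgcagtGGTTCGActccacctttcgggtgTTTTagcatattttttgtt
C18A11.t2: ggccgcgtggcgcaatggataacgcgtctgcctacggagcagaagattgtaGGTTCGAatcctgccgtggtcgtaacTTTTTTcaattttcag
C04A11.t1: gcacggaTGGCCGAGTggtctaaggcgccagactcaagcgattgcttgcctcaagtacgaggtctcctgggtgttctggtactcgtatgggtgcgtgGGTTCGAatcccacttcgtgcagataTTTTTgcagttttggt
F46G11.t2: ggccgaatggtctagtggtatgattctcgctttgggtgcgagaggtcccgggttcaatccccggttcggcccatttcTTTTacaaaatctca
F46G11.t1: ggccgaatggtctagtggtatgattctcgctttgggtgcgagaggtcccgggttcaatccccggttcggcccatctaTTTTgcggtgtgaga
ZK970.t1: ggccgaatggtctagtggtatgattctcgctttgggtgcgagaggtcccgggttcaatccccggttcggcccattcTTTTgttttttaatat

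The second set gives 201 bases centred on an optimal AMA-1 summit, with the summit at base 101 counted from the 5′ end and the tRNA gene in capitals. These genes were chosen because the summit lay inside the gene or within 20 bp of it. C33G3.t2 (shown chrX:14063937-14064137, minus strand) is a lysine tRNA gene, Y97E10C.t1 (chrV:7730540-7730740, minus strand) a threonine, C02B4.t2 (chrX:12665196-12665396, plus strand) a tyrosine, ZK783.t1 (chrIII:7642102-7642302, minus strand) a glutamate, F22B7.t3 (chrIII:8652978-8653178, plus strand) a phenylalanine and C04A2.t1 (chrII:6853141-6853341, plus strand) a leucine tRNA gene.
C33G3.t2: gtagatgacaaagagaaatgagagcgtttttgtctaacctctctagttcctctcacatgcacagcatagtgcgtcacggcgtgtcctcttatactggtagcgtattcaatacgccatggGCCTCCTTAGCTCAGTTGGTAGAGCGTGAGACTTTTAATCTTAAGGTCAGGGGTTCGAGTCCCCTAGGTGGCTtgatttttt
Y97E10C.t1: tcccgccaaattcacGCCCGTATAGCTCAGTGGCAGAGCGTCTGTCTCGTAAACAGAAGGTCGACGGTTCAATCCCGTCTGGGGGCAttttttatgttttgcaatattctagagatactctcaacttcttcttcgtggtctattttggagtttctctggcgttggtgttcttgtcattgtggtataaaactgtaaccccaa
C02B4.t2: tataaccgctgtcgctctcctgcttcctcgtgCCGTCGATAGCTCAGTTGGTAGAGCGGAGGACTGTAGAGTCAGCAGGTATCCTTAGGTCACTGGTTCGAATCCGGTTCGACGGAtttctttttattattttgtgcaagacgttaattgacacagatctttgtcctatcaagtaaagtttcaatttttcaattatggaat
ZK783.t1: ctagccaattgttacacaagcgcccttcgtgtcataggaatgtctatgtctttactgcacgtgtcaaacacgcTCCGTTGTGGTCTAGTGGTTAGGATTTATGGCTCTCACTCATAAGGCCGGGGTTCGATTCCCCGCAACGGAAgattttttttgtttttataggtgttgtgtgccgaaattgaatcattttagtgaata
F22B7.t3: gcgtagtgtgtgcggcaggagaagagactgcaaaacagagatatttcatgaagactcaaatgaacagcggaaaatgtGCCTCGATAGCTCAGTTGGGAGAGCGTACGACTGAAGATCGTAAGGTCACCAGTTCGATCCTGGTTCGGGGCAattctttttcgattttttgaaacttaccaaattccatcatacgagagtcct
C04A2.t1: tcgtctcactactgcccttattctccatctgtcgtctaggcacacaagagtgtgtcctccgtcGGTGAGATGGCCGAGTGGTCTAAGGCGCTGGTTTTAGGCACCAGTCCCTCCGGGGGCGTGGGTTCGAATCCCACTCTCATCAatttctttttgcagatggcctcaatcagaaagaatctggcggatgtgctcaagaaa

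Few tRNA genes had a strong AMA-1 peak beside them. An optimal summit lay in 23 of 612 windows, or 3.76% (Wilson 95% interval 2.52 to 5.58), against 1.83% of all tiles. Among far genes the count was 14 of 415, or 3.37% (2.02 to 5.58), against 1.09% of tiles equally far from a promoter, a share 3.09 times as large. Among near genes it was 9 of 197, or 4.57% (2.42 to 8.45), against 3.12% of near tiles. The interval for far genes lay above the share of far tiles, and that for near genes held the share of near tiles. These intervals treat genes as separate, although windows can overlap and share a summit. With overlapping windows merged into loci, far loci had an optimal summit in 12 of 310, or 3.87% (2.23 to 6.64). Merged loci are longer than a tile, so no tile share was set beside them. With replicate 1 alone, through its 1861 strongest peaks, the shares were 2.45% of all, 3.05% of near and 2.17% of far windows. The matching tiles stood at 1.85%, 3.30% and 1.02%. With replicate 2 alone the shares were 2.61%, 3.05% and 2.41%, against tiles of 1.76%, 2.39% and 1.39%. The far share was thus lower from either replicate than from both, and the near share lay below its tiles with replicate 1 alone. The interval for far genes stayed above the tiles with replicate 1 alone (1.15 to 4.07) and held the tile share with replicate 2 alone (1.31 to 4.38).

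In the pooled list, which holds background as well as enriched regions, the windows stood closer to the tiles. A pooled summit lay in 161 windows, or 26.3% (23.0 to 29.9), against 23.5% of tiles. For far genes the count was 102, or 24.6% (20.7 to 28.9), against 21.6% of far tiles, and for near genes 59, or 29.9% (24.0 to 36.7), against 26.8% of near tiles. The intervals for all, near and far genes each held the share of their tiles.

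**Figure D1:**
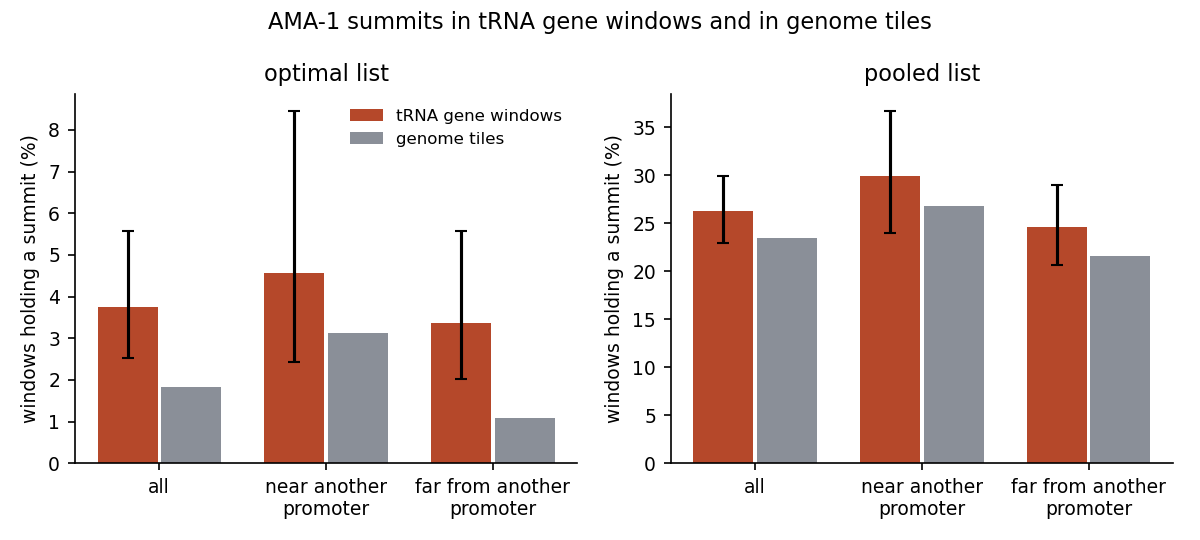
Percent of tRNA gene windows (red) and of genome tiles of the same length (grey) that hold an AMA-1 summit in the optimal list (left) and the pooled list (right), for all, near and far genes; bars on the red columns are Wilson 95% intervals. In the optimal list far windows reach 3.37% against 1.09% of far tiles, and in the pooled list 24.6% against 21.6%.

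The ratio of far windows to far tiles changed with how much of the pooled list was read. It was 2.52 for the 500 peaks of highest signal, 3.09 for 1861, 2.01 for 5000, 1.68 for 10000, 1.24 for 20000 and 1.14 for 30000. Beyond the strongest peaks it fell at each step. For near genes the ratios at the same steps were 1.75, 1.46, 0.749, 0.997, 1.18 and 1.12, with no steady course. The smallest counts behind these ratios were 3 windows each, for near and for far genes at 500 peaks.

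The signals at tRNA genes were ordinary for the list. The authors' signal value has no stated scale in the sources used here. It had a median of 65.1 over the 23 windows with an optimal summit, against 65.5 over all 1861 optimal peaks. The values ran from 48.3 to 221.0 in these windows, against 47.4 to 1434.88 in the whole list. None of the 25 highest peaks lay in a tRNA window, 2 of the 23 windows held a peak in the upper 10 percent of the list, and 11 held one above the median of the list. Over the 161 windows with a pooled summit the median was 17.7, against 14.9 over all pooled peaks. Each window was read at its highest signal, and these windows held 181 distinct summits. That choice by itself raises the value over windows above that over single peaks.

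Around far tRNA genes the pooled summits crowded onto the start of the gene. Counted on the strand of the gene in bins of 200 bp, 48 summits lay in the bin just upstream of the 5′ end and 35 in the bin that begins at it. The other 18 bins out to 2000 bp on either side held 11 to 25 each. Each replicate list gave the same picture: 45 and 34 summits in the central pair against 9 to 29 elsewhere in replicate 1, and 46 and 44 against 15 to 27 in replicate 2. Around near genes the central pair held 20 and 21 pooled summits, against 3 to 17 in the other bins. For near genes the replicates differed. The pair held 17 and 19 against 5 to 19 in replicate 1, and 14 and 18 against 4 to 13 in replicate 2. In replicate 1 the central pair of near genes thus did not stand above every other bin.

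In finer bins of 50 bp, the far genes had 17 pooled summits from 100 to 51 bp upstream and 18 from 50 bp upstream to the 5′ end. These were the fullest bins within 500 bp, followed by 11 in the first 50 bp of the gene and 11 from 100 to 149 bp past the 5′ end. Where tRNA genes lie close together, a summit is counted once for each of them in this profile.

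**Figure D2:**
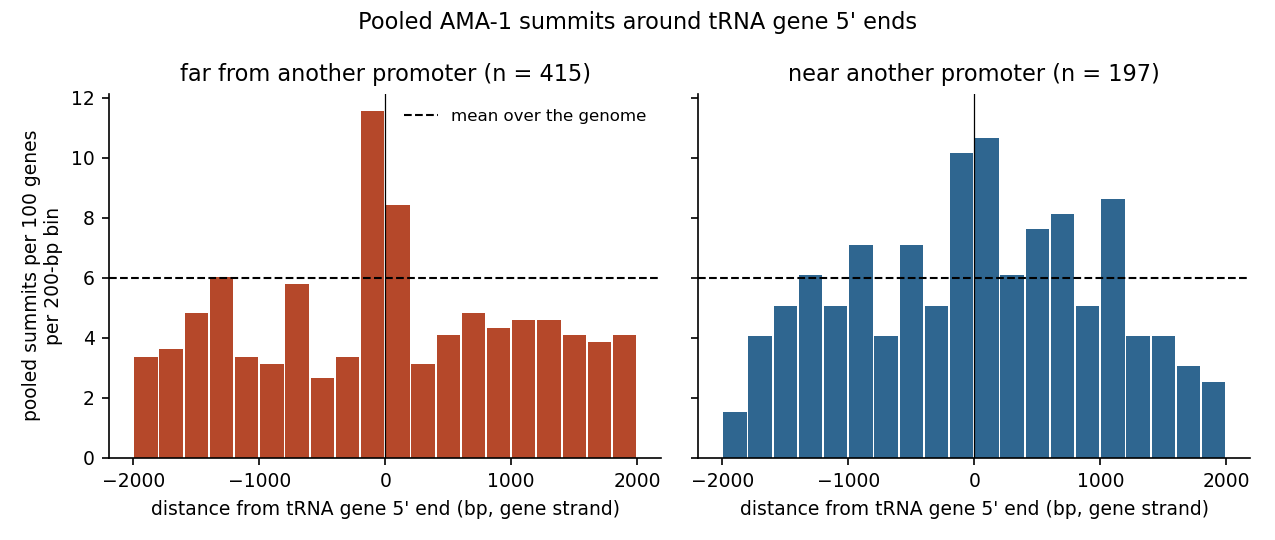
Pooled AMA-1 summits per 100 tRNA genes in bins of 200 bp around the 5′ end of the gene, read along the gene strand, for 415 far genes (left) and 197 near genes (right); the dashed line is the mean over all bins of the genome, 5.98 per 100 bins. The bins on both sides of the far 5′ ends hold 48 and 35 summits, and no other far bin holds more than 25.

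A narrower span was chosen after the profile had been seen. A pooled summit lay within 200 bp of the 5′ end at 78 of 415 far genes, or 18.8% (15.3 to 22.8), against 10.1% of far tiles of 400 bp. The spans of the same width that lay 600 to 1000 bp upstream and downstream of the same genes held one at 8.19% and 8.92%. In replicate 1 the close share was 17.8% (14.4 to 21.8), against 9.56% of far tiles and 7.47% and 6.27% in the outer spans. In replicate 2 it was 20.5% (16.9 to 24.6), against 11.1% of far tiles and 9.16% and 9.64% in the outer spans. In the optimal list 10 far genes, or 2.41% (1.31 to 4.38), had a close summit, against 0.43% of such tiles and 1 gene in each outer span.

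The 23 windows held 22 distinct optimal summits, because M02F4.t1 with M02F4.t2 and F46G11.t1 with F46G11.t2 share a summit and C02B4.t2 has 2. Of these 22 summits, 4 lay inside a tRNA gene and 12 within 100 bp of one, with 9 upstream and 9 downstream of the gene and a median distance of 79.5 bp. In the windows of near genes, 6 of 9 summits lay nearer to the tRNA gene than to the other 5′ end. A window built around the tRNA gene by itself favours that outcome. The whole pooled list gave the same share, 66.7%, or 48 of 72 near summits. For far genes the split leaves hardly any other outcome, and all 13 lay nearer to the tRNA gene. The annotation placed 14 of the 22 between genes, 5 in introns of coding genes and 3 in coding exons. A 5′ end of another annotated noncoding gene lay within 500 bp of 13 of the 22 summits, a class that the split did not count. No share over all tRNA genes was set beside this count. Such ends are common there: a split that also counts all noncoding 5′ ends made 486 tRNA genes near and 126 far. Of those 126 far windows 5 held an optimal summit, or 3.97% (1.71 to 8.95), against 0.988% of far tiles under that split. At C33G3.t2 the 5′ end of the ncRNA gene C33G3.12 lay 26 bp from the summit. The summit inside C02B4.t2 lay in an exon of the ncRNA gene C02B4.8.

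**Figure D3:**
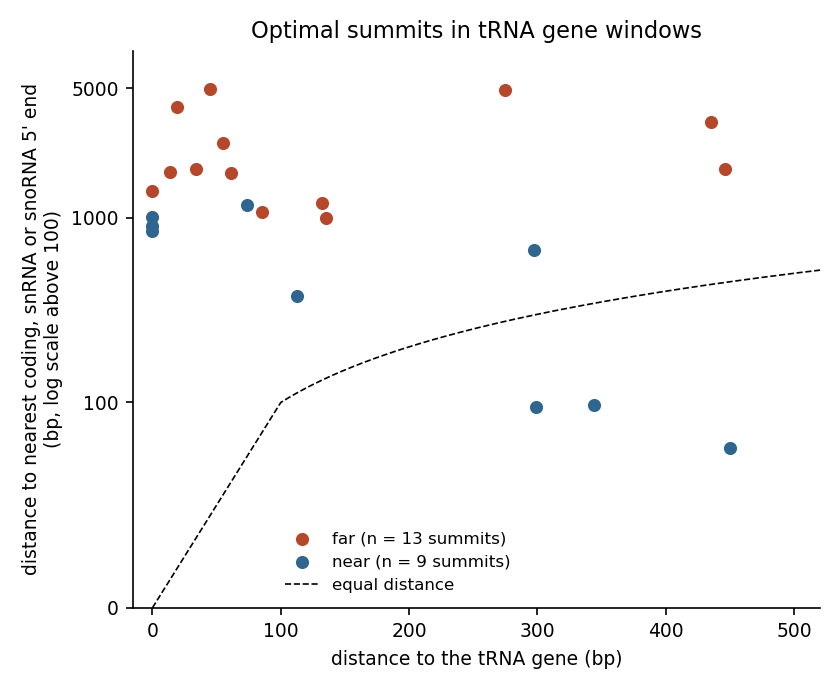
Each of the 22 optimal summits in tRNA gene windows by its distance to the tRNA gene (x axis, bp) and to the nearest protein-coding, snRNA or snoRNA 5′ end (y axis, bp, log scale above 100), for far (red) and near (blue) genes. The dashed line marks equal distance, and the 3 blue points under it are the summits nearer to another 5′ end.

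Among far genes the highest optimal signal was 107.5, in the window of the arginine tRNA gene C18A11.t2, whose sequence is given above. Its summit lay 275 bp past the gene, between genes, with 57.5 in replicate 1 and 55.2 in replicate 2. The nearest coding, snRNA or snoRNA 5′ end lay 4903 bp from that summit.

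C33G3.t2, the lysine tRNA gene, followed with a signal of 88.6, from 43.6 in replicate 1 and 43.0 in replicate 2. Its summit was 19 bp upstream of the gene and also 107 bp past the 3′ end of dyc-1. The summit therefore lies at a tRNA gene and just behind a coding gene at once.

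The tyrosine tRNA gene C02B4.t2 lies in an intron of the nuclear hormone receptor gene nhr-17, on the opposite strand. It had summits of signal 86.0, 132 bp upstream, and 58.5, inside the gene. Replicate 1 gave 70.5 and replicate 2 gave 12.8 as the highest value in the window. Both replicates placed that value upstream, at 68 and 41 bp from the 5′ end.

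M02F4.t2 (glutamate, chrX:3035976-3036047, minus strand) and M02F4.t1 (glycine, chrX:3036164-3036235, plus strand) point away from each other. They share a summit of signal 74.0 between them, 83 and 34 bp upstream of their 5′ ends, with 33.3 in replicate 1 and 41.7 in replicate 2. The proline tRNA genes F46G11.t2 and F46G11.t1 have the same divergent layout and share a summit of 48.3, 55 and 135 bp upstream, with 26.2 in replicate 1 and 23.1 in replicate 2. In both pairs the shared summit fell in the gap between 2 tRNA genes.

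Further far genes had the summit close to the gene. At the threonine tRNA gene Y97E10C.t1 (chrV:7730654-7730725, minus strand), which has no identical copy, a summit of 72.7 lay 14 bp past the gene, with 41.7 in replicate 1 and 24.2 in replicate 2. At F49E2.t1 (valine, chrX:9561088-9561160, minus strand) a summit of 64.6 lay 45 bp past the gene, with 38.9 in replicate 1 and 24.1 in replicate 2. At F14H8.t1 (valine, chrV:15013034-15013106, minus strand) a summit of 49.5 lay 85 bp upstream in a coding exon of obr-2, with 35.8 in replicate 1 and 11 in replicate 2. Summits thus stood on either side of the gene.

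Some far windows held a summit that only replicate 1 ranked highly. B0228.t1 (glutamine, chrII:7756952-7757023, minus strand) had 58.8 in the optimal list, 62.0 in replicate 1 and no summit in the replicate 2 window. At the selenocysteine tRNA gene K11H12.t1, the only one of its kind, the optimal summit of 65.1 lay 435 bp past the gene and 75 bp past the 3′ end of K11H12.8. Replicate 1 gave 63.9 there, while the highest replicate 2 summit in the window had 4.04 and lay elsewhere, 201 bp from the tRNA 5′ end. That replicate 2 value ranked at percentile 10.9 of its list, against percentile 98.3 in replicate 1.

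On chromosome I, C12C8.t1 (glycine, chrI:9320178-9320249, plus strand) had a summit of 79.3 that lay 446 bp from the gene in a coding exon of hsp-70, the gene of a heat-inducible chaperone. Replicate 1 gave 76.8 in that exon, and replicate 2 gave 12.99 at another place, 114 bp from the tRNA 5′ end. At T22A3.t1 (glycine, chrI:10593137-10593207, plus strand) a summit of 64.6 lay 135 bp past the gene in a coding exon of set-18, with 53.3 in replicate 1 and 6.18 in replicate 2. Both glycine tRNA genes had their optimal summits on coding exons of other genes. C12C8.t1 also held a pooled summit of 45.0, below the optimal list, inside the tRNA gene itself.

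Just below the optimal list, which ended at 47.4, stood far genes with nearly the same pooled signal. F13G11.t1 (arginine) had 47.0, F56F3.t1 (arginine) 46.2, C12C8.t6 (glycine) 45.0, T28B4.t1 (phenylalanine) 41.5 and F34H10.t1 (alanine) 39.3. The summit of 45.0 counted for C12C8.t6 was the one inside C12C8.t1, 143 bp upstream of C12C8.t6. The limit of the optimal list thus fell within a continuous run of values. F56F3.t1 had no summit in the replicate 1 window and 34.4 in replicate 2.

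Of the 4 near genes with the highest signals, 3 had the summit closer to another promoter than to the tRNA gene. C16D9.t4 (tyrosine, chrV:8247481-8247564, plus strand) had 221.0, the highest of all tRNA windows, with 156.8 in replicate 1 and 68.3 in replicate 2. That summit lay 299 bp past the tRNA gene and 98 bp past the 5′ end of the snoRNA gene C16D9.10. F22B7.t4 (phenylalanine, chrIII:8653608-8653680, minus strand) had 113.2, with 83.6 in replicate 1 and 31.4 in replicate 2, at 344 bp from the gene and 99 bp from the 5′ end of the coding gene F22B7.9. ZK970.t1, the proline tRNA gene shown above, had 69.9, with 64.2 in replicate 1 and 12.4 in replicate 2, at 450 bp from the gene and 78 bp from the 5′ end of clpp-1, which encodes a mitochondrial protease subunit.

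The other was T03E6.t1 (glutamine, chrV:16592237-16592308, minus strand), with 131.8 in the optimal list, 74.0 in replicate 1 and 61.3 in replicate 2. Its summit lay 113 bp upstream of the tRNA gene, 379 bp from the 5′ end of srh-269 and 151 bp past the 3′ end of cpl-1, which encodes a cathepsin L protease. A coding 3′ end was thus nearly as close as the tRNA gene.

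The near genes with the summit inside the gene all lie in introns of coding genes, and at ZK783.t1 and C04A2.t1 the summit also lay in an exon of an annotated ncRNA on the other strand, ZK783.8 and C04A2.11. ZK783.t1 (chrIII:7642158-7642229, minus strand), in upp-1, had 60.9, with 43.2 in replicate 1 and 19.6 in replicate 2. F22B7.t3 (chrIII:8653055-8653127, plus strand), in F22B7.9, had 57.2, with 42.1 in replicate 1 and 22.6 in replicate 2. C04A2.t1 (chrII:6853204-6853285, plus strand), in C04A2.15, had 55.3, with 18.4 in replicate 1 and 35.4 in replicate 2. Their 5′ ends of other genes lay 847 to 1005 bp from the summits, and the host strand was the same for ZK783.t1 and C04A2.t1 and opposite for F22B7.t3.

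The last near genes were C04A11.t1 and F58D5.t1. C04A11.t1 had 57.2, 74 bp past the gene, with 30.2 in replicate 1 and 27.7 in replicate 2. F58D5.t1 (valine, chrI:12065865-12065937, plus strand) had 51.2, 297 bp upstream, with 34.0 in replicate 1 and 16.5 in replicate 2. Over all 197 near genes the neighbouring promoter itself had an optimal summit within 500 bp for 9. Of these, 5 were among the 9 near genes with an optimal summit in the window. At C16D9.t4, T03E6.t1, F22B7.t4 and ZK970.t1 the same summit counted for the window and for the promoter, so this overlap is largely built in. The share of all such promoters with an optimal summit was not counted.

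The windows with an optimal summit were picked from both replicates together, so that a summit in each whole list is close to fixed by that choice. Of the 23 windows with an optimal summit, 22 held a summit in both whole replicate lists and B0228.t1 in replicate 1 alone, although at K11H12.t1 and C12C8.t1 the highest replicate 2 summit lay elsewhere in the window. Among each replicate's 1861 strongest peaks, 8 of the 23 had a summit in both, 7 in replicate 1 only, 6 in replicate 2 only and 2 in neither. The same split was not counted over all optimal peaks. The median percentile within the own list was 95.9 in each replicate, and 11 of 22 windows ranked higher in replicate 1. The lowest was percentile 79.0 in replicate 1, at C04A2.t1, and 10.9 in replicate 2, at K11H12.t1. The highest summits of the replicates in a window lay a median of 68 bp apart.

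**Figure D4:**
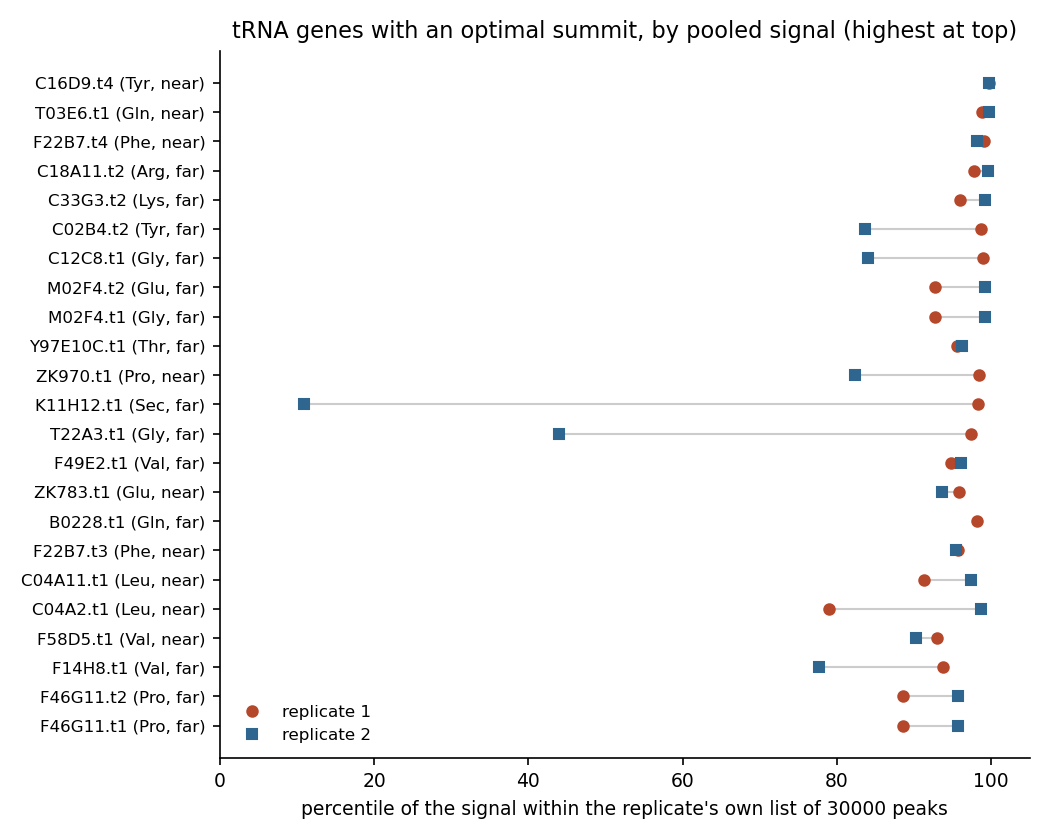
Percentile of the highest signal in the window within each replicate's own list of 30000 peaks (x axis), for the 23 tRNA genes with an optimal summit, ordered by pooled signal; circles are replicate 1 and squares replicate 2. K11H12.t1 shows the widest gap, with 98.3 in replicate 1 and 10.9 in replicate 2, and B0228.t1 has no square.

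The overlap of the whole replicate lists was also counted over all 612 windows. A summit lay in 97 windows in both lists, in 57 in replicate 1 only, in 88 in replicate 2 only and in 370 in neither. This overlap was not counted over tiles, so the counts do not show whether tRNA windows differ from others. The share was 25.2% (21.9 to 28.7) in replicate 1, against 23.3% of tiles, and 30.2% (26.7 to 34.0) in replicate 2, against 23.6% of tiles. Among the strongest 1861 peaks of each it was 2.45% (1.49 to 4.0) in replicate 1, against 1.85% of tiles, and 2.61% (1.62 to 4.20) in replicate 2, against 1.76% of tiles. In each replicate alone, the interval for the strongest peaks held the tile share, and the interval for the whole list held it in replicate 1 and lay above it in replicate 2. Over the 97 windows with both, the Spearman correlation of the signals was 0.48, given as a description because windows of neighbouring genes share peaks.

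Most tRNA gene bodies are repeated in the genome. The 612 genes carried 200 distinct sequences, 143 genes had no identical copy, and the most copied sequence occurred 29 times. No word of 50 bases inside the gene was unique in the genome for 473 genes. The windows were far less repeated: the median window was 96.2% unique, 567 were unique over at least 80 percent, and all 23 with an optimal summit were among these. The sources used here do not say how reads with several possible placements were treated.

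Close pooled summits were more frequent at far genes with identical copies. A pooled summit lay within 200 bp of the 5′ end at 69 of 316 far genes with a copy, or 21.8% (17.6 to 26.7), with 8.54% in each outer span. At far genes without a copy it did so at 9 of 99, or 9.09% (4.86 to 16.4), with 7.07% upstream and 10.1% downstream. The intervals of these groups did not overlap, though they count neighbouring genes that share a summit as separate. In replicate 1 the values were 20.9% with and 8.08% without a copy, and in replicate 2 they were 23.7% with and 10.1% without. In the optimal list the close shares were 2.53% (1.29 to 4.92) with and 2.02% (0.556 to 7.07) without a copy, with overlapping intervals. The part that repeated sequence has in this was not tested.

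The X chromosome holds 276 of the 612 tRNA genes, or 45.1%, on 17.7% of the nuclear genome and with 12.9% of the optimal summits. An optimal summit lay in 8 of 209 far windows on X, or 3.83% (1.95 to 7.37), against 0.946% of far X tiles. On the autosomes it lay in 6 of 206, or 2.91% (1.34 to 6.21), against 1.13% of far autosomal tiles. The intervals for X and the autosomes overlapped over most of their length, as did those of the close pooled summits, at 39 of 209 and 39 of 206 far genes.

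A protein-coding gene spans 290 of the tRNA genes, 166 on the same strand and 124 on the opposite one. An optimal summit lay in 5 of 197 far windows inside such a gene, or 2.54% (1.09 to 5.80), against 1.01% of far tiles in coding genes. Outside coding genes it lay in 9 of 218, or 4.13% (2.19 to 7.66), against 1.23% of far tiles outside them. Close pooled summits lay at 20.8% (15.7 to 27.0) of far genes inside and 17.0% (12.6 to 22.5) outside coding genes, so that position in a host gene did not separate them beyond counting error.

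The 3′ ends of coding genes lay beside many of the strong summits. Of the 22 optimal summits in tRNA windows, 14 had a coding 3′ end within 500 bp, or 63.6%, against 33.1% of all optimal summits. Far tRNA genes with a coding 3′ end within 500 bp had an optimal summit in 8 of 66 windows, or 12.1%, against 2.19% of far tiles with such an end. Far genes without one had it in 6 of 349 windows, or 1.72%, against 0.916% of far tiles without one. Counting coding 3′ ends as well as 5′ ends in the split left 5 of 297 far windows with an optimal summit, or 1.68%, against 0.900% of such tiles. The grouping by a 3′ end within 500 bp was chosen after the summits had been seen.

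Close summits were set beside the 3′ ends as well. In the optimal list they lay at 6 of 66 far genes with a coding 3′ end within 500 bp, or 9.09% (4.23 to 18.4), and at 4 of 349 without one, or 1.15% (0.447 to 2.91). In the pooled list the shares were 22.7% (14.3 to 34.2) with and 18.1% (14.4 to 22.4) without such an end. In replicate 1 they were 19.7% (11.9 to 30.8) with and 17.5% (13.9 to 21.8) without. In replicate 2 they were 28.8% (19.3 to 40.6) with and 18.9% (15.1 to 23.3) without. The intervals overlapped in the pooled list and in each replicate list, and not in the optimal list. Far genes with no coding 3′ end within 1000 bp had a close pooled summit at 52 of 297, or 17.5% (13.6 to 22.2), with 8.42% and 7.07% in the outer spans. Far genes alone in their locus had one at 48 of 248, or 19.4% (14.9 to 24.7), with 8.47% and 9.27% in the outer spans. Both shares were about as large as that of all far genes.

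**Figure D5:**
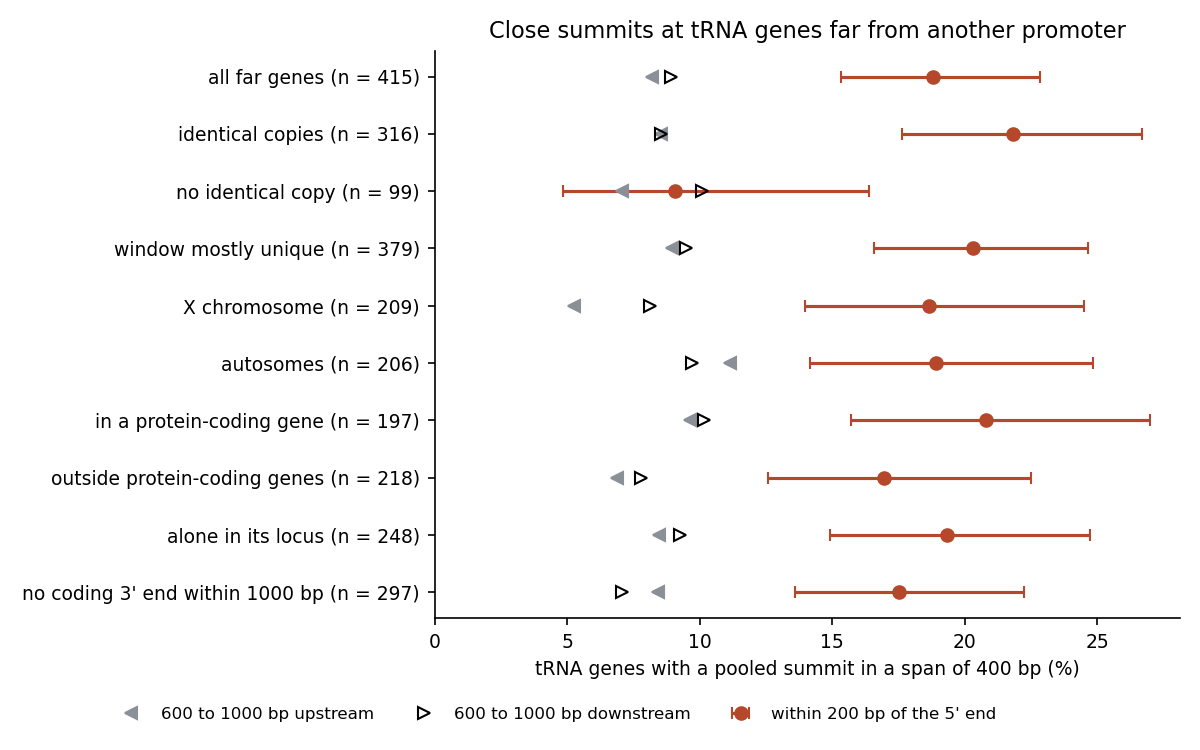
Percent of far tRNA genes with a pooled AMA-1 summit within 200 bp of the 5′ end (red points, Wilson 95% intervals) and in spans of equal width 600 to 1000 bp upstream (grey) and downstream (open triangles), for all far genes and subsets. The point for the 99 genes without an identical copy, 9.09%, lies between its outer spans, and the interval of each other subset lies above both.

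By amino acid, 607 genes could be matched to a RefSeq product, in 21 kinds, and 5 could not. An optimal summit occurred for 12 kinds. Glycine had 3 of 55 windows, proline 3 of 42 and valine 3 of 31. Alanine, asparagine, aspartate, cysteine, histidine, isoleucine, methionine, serine and tryptophan had none, which for the 39 serine genes leaves an upper limit of 8.97% by the Wilson interval. Apart from the single selenocysteine gene, which had one, close pooled summits at far genes ran from 1 of 24 for serine and 1 of 19 for leucine to 12 of 35 for glycine, 7 of 21 for isoleucine and 4 of 12 for asparagine. These counts are small.

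The strings searched for the internal promoter did not separate the genes with a peak. GGTTCGA, for box B, occurred on the gene strand in 15 of the 23 genes with an optimal summit and in 395 of all 612, or 64.5%, against 0.264% of genome windows of 72 bases, the median gene length. TGGCNNAGT, for box A, occurred in 2 of the 23 and in 61 of all 612, or 9.97%, against 0.323% of genome windows. On the opposite strand GGTTCGA occurred in 21 genes and TGGCNNAGT in 0. A run of TTTT within 50 bp after the gene was present for 23 of the 23 and for 605 of all 612, or 98.9%, against 51.3% of genome windows. The strings do not overlap each other, and no match says only that these letters are not in the gene.

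Other short noncoding genes, which RNA polymerase II transcribes in large part, carried strong summits more often. With the same windows, an optimal summit lay at 3.76% of tRNA genes, against 22.5% (16.1 to 30.4) of 129 snRNA genes, 17.3% (13.7 to 21.7) of 346 snoRNA genes and 11.9% (8.49 to 16.4) of 261 miRNA genes. With no coding 5′ end within 1000 bp the shares were 12.7% for snRNA, 13.3% for snoRNA and 13.8% for miRNA genes, beside 3.37% of far tRNA genes. These filters are unlike, since far tRNA genes also have no snRNA or snoRNA 5′ end within 1000 bp. The interval for tRNA genes lay below those of the snRNA, snoRNA and miRNA genes. The median optimal signal was 65.1 at tRNA genes, against 141.0 at snRNA, 101.9 at snoRNA and 103.0 at miRNA genes.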

How the data were processed

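AMA-1 ChIP-seq of whole L2 larvae was used as peak lists on the ce11 build, which is WBcel235. Per the deposited descriptions, replicate and pooled lists came from the alignments and a file also behind the control-normalised track, and the optimal list from these by the irreproducible discovery rate. Column 7 holds the authors' signal per peak and column 10 the summit. Aligner, peak caller, versions and threshold stay unnamed (not given in the sources used here). Only lists on ce11 were read, and 0 columns of per-sample values were left unmapped.

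Summits were placed in windows around tRNA genes of Ensembl release 115 with Python 3.11.15 and NumPy 2.4.6, and products were matched in RefSeq. No test was made, since there is 1 group and no second condition. Shares carry Wilson 95% intervals and stand beside genome tiles cut from the first base on. Window counting was checked on simulated data, which recovered 40 of 40 planted summits. The genes, lists and splits were chosen with earlier results of these data known. Named were every far gene with an optimal summit (at most 20), the 10 near genes of highest signal, every gene with an optimal summit inside and the 5 far genes just outside the list. Whether the replicates came from separate cultures is not given beyond the label of biological replicates.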

Additional observations from a re-analysis of the deposited data

How the results depend on the processing

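Under the 12 alternatives that have a matching tile share, the far share lay above its tiles in the optimal list in all 12, and its interval in 9. The interval held the tile share without replicate 1 (1.31% to 4.38%, tiles 1.39%), with coding 3′ ends in the split (0.721% to 3.88%, tiles 0.900%) and for the gene alone (0.0425% to 1.35%, tiles 0.0790%). The near share lay above its tiles in 9 of 12, with its interval above them in 3, and below them in the other 3.

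The share of all windows with an optimal summit lay above its tiles in 8 of 8 alternatives with a tile share, and its interval in 4. It was 0.654% with the gene alone, against 0.134% of tiles. With the 930 strongest optimal peaks it was 1.80%, against 0.919%, and with 5000 pooled peaks 6.21%, against 4.77%. For near windows the gene alone gave 1.52%, against 0.229% of tiles, and the 930 peaks 2.03%, against 1.61%. For far windows the gene alone gave 0.241%, against 0.0790% of tiles, and the 930 peaks 1.69%, against 0.525%. The 5000 pooled peaks gave 6.51%, against 3.23%, and a split that also counts coding 3′ ends 1.68%, against 0.900%. Leaving out a replicate gave 2.45% to 2.61% for all, 3.05% for near and 2.17% to 2.41% for far windows. The tiles for all, near and far stood at 1.85%, 3.30% and 1.02% without replicate 2. Without replicate 1 they stood at 1.76%, 2.39% and 1.39%.

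In the pooled list with 1000 bp on each side, all and far windows gave 33.8% and 32.0%, against 32.5% and 30.1% of tiles. With the 10000 strongest peaks they gave 11.9% and 11.6%, against 8.99% and 6.87%. With 250 bp they gave 21.1% and 20.7%, against 15.1% and 13.7%. Without replicate 1 they gave 30.2% and 31.3%, against 23.6% and 23.5%. Without replicate 2 they gave 25.2% and 23.9%, against 23.3% and 20.5%. Both shares lay above their tiles in all 5 of these alternatives. The interval did so in 3 of the 5, for all and for far windows alike. The median pooled signal was 30.8 in the 10000 strongest peaks, and 7.91 to 13.4 in single replicates, whose lists have their own scales. With 250 bp, 100% of optimal summits lay nearer to the tRNA gene, a window that leaves little room for another outcome. With the main window it was 81.2% to 85.7% when a replicate was left out. That share includes far summits, for which the split leaves hardly any other outcome. Of the near summits, 3 of 6 lay nearer to the tRNA gene with replicate 1 alone and 4 of 6 with replicate 2 alone.

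The alternatives for close summits and for coding 3′ ends were added after seeing the data. The close share was 12.5% within 100 bp, against 5.42% of tiles, and 8.67% in the 10000 strongest peaks, against 2.92% of tiles, and it was 17.8% to 20.5% with a replicate left out. The share beside coding 3′ ends was 9.09% with either replicate left out. No paired analysis was possible because the series holds 1 group. With 2 lists and unknown depth, differences of a few windows are within counting error.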
